A study of Mus musculus with 6 samples.

Results

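Transcripts of the synaptic vesicle and release machinery were followed in injured mouse spinal cord motor neurons. The set held 37 genes, chosen by name, among the 53858 genes of the count table, and each name matched 1 gene. Poly(A) RNA was sequenced from 6 pools of picked fluorescent motor neurons, each with 10 to 15 cells, although the lysis step of the protocol names up to 20. All pools came from wild-type mice and were collected on day 6 after a sciatic nerve crush. DiO, a green lipophilic dye given near the crush on day 0, filled injured neurons, and DiI, a red dye given farther along the nerve on day 2, filled neurons whose new axons had arrived there. The 3 DiO-only pools carried DiO without DiI, and the 3 double-labelled pools carried both dyes. A missing DiI label does not show that an axon failed to regrow. The labels do not say that pools came from separate mice, so a p-value here speaks only of the scatter among pools, which may be technical.

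A nerve terminal stores its transmitter in vesicles and releases it when calcium enters. Synaptotagmins sense the calcium, and the SNARE proteins on vesicle and plasma membrane (synaptobrevins, also called VAMPs, with syntaxin and SNAP-25) pull the membranes together. RIM, bassoon, piccolo and Munc13 proteins hold and prime vesicles at the active zone, NSF with its SNAP adaptors takes used SNARE complexes apart, and dynamin, synaptojanin and AP180 serve the retrieval of membrane. At the neuromuscular junction this machinery releases acetylcholine onto muscle, and an axotomised motor neuron has lost that junction. The transcripts measured here are in the cell body, whereas most of the proteins work in the distant terminal.

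The total counts ran from 2997714 to 6563403 per library. Levels are given as CPM, counts relative to library size after TMM scaling, and levels of different genes are compared only as CPM per kilobase of exon. *Chat*, which makes acetylcholine, stood at 73.7, 102 and 59.6 CPM in DiO-only pools 1, 2 and 3 and at 101, 142 and 89.8 CPM in double-labelled pools 1, 2 and 3. *Isl1*, a motor neuron transcription factor, stood at 28.7, 35.7 and 31.3 and at 34.3, 16.5 and 25.1 CPM in the same order. Genes with at least 1 count numbered 15657 to 16467 in double-labelled pools and 17229 to 22118 in DiO-only pools, without overlap. Markers of other cells were present. The 12 oligodendrocyte markers summed to 288 to 592 CPM in DiO-only and 1461 to 4942 CPM in double-labelled pools, with 11 of 11 tested markers higher in the latter. *Mbp* of myelin stood at 397, 143 and 335 against 2339, 807 and 3909 CPM. For the 11 astrocyte markers the sums were 870.2 to 1286 CPM in DiO-only and 1079.6 to 2320.2 CPM in double-labelled pools (8 of 10 tested higher), with *Aqp4* at 3.94, 1.00 and 8.76 against 31.0, 17.6 and 32.4 CPM. The 11 interneuron markers summed to 98.6 to 174 CPM in DiO-only and 25.3 to 53.4 CPM in double-labelled pools, with 3 of 4 tested lower. *Slc17a6* of glutamatergic neurons stood at 62.6, 8.02 and 7.90 against 8.42, 1.10 and 11.0 CPM and *Gad1* of inhibitory neurons at 2.04, 1.00 and 1.03 against 3.49, 0 and 0 CPM. No listed marker was at 0 in every library. Sums of the motor neuron (2296 to 3886 CPM in DiO-only and 1998 to 3468 CPM in double-labelled pools), microglia (86.2 to 95.2 CPM in DiO-only and 49.8 to 132 CPM in double-labelled pools), endothelial and pericyte (2.19 to 30.1 CPM in DiO-only and 0.402 to 3.08 CPM in double-labelled pools) and Schwann cell lists (702 to 823 CPM in DiO-only and 483 to 702 CPM in double-labelled pools) overlapped. Of tested markers, 3 of 6 for motor neurons, 4 of 5 for microglia and 2 of 2 for Schwann cells were lower in double-labelled pools. The Schwann cell ranges barely met, with a DiO-only minimum of 702.217 and a double-labelled maximum of 702.273 CPM. Many release genes are also used by interneurons, and the part of these other cells in the values that follow was not tested.

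The comparison of the groups asks whether neurons that reached the distal site early carried another dose of release machinery. In edgeR's quasi-likelihood test 0 members had an adjusted p under 0.05, as did 0 of the 12954 genes tested (0%). Most of the release machinery was measured at depth in both groups. A log2 fold change over 1 in size was found for 4 of 36 tested members, beside 2287 of the 12954 genes tested. These 4, *Syn3*, *Syt7*, *Stx1a* and *Unc13b*, had only 95 to 803 counts over all libraries. Of the 37 genes 36 passed the filter on low counts, *Cplx2* being the exception. At an unadjusted p under 0.05, 2 members were lower in double-labelled pools, *Syn3* and *Syt7*, and 0 were higher. Of all genes tested 5.81% were past that value, 2.63% lower and 3.18% higher. Groups did not overlap for 2 members, *Sv2b* upward and *Rab3c* downward, where 12.9% of all genes tested had groups apart, 5.86% upward and 7.07% downward. With the pool number as a block 0 members passed (0.178% of all genes), and with DESeq2 on unfiltered genes 0 (0.263%). Log2 fold changes, here always double-labelled over DiO-only pools, were below 0 for 22 of 36 members, against 48.7% of all genes. Their median was -0.21, beside 0.02 for all genes, and their median absolute size was 0.31, beside 0.42 for all genes. Without a filter on low counts the order turned, with -0.22 for members and -0.34 for all genes in edgeR and -0.19 and -0.31 in DESeq2. The members' median was -0.03 without double-labelled pool 1 and stood at -0.37 without double-labelled pool 3, so it rested on single libraries. In pooled cells, fewer cells of a type and less RNA per cell cannot be told apart.

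**Figure D1:**
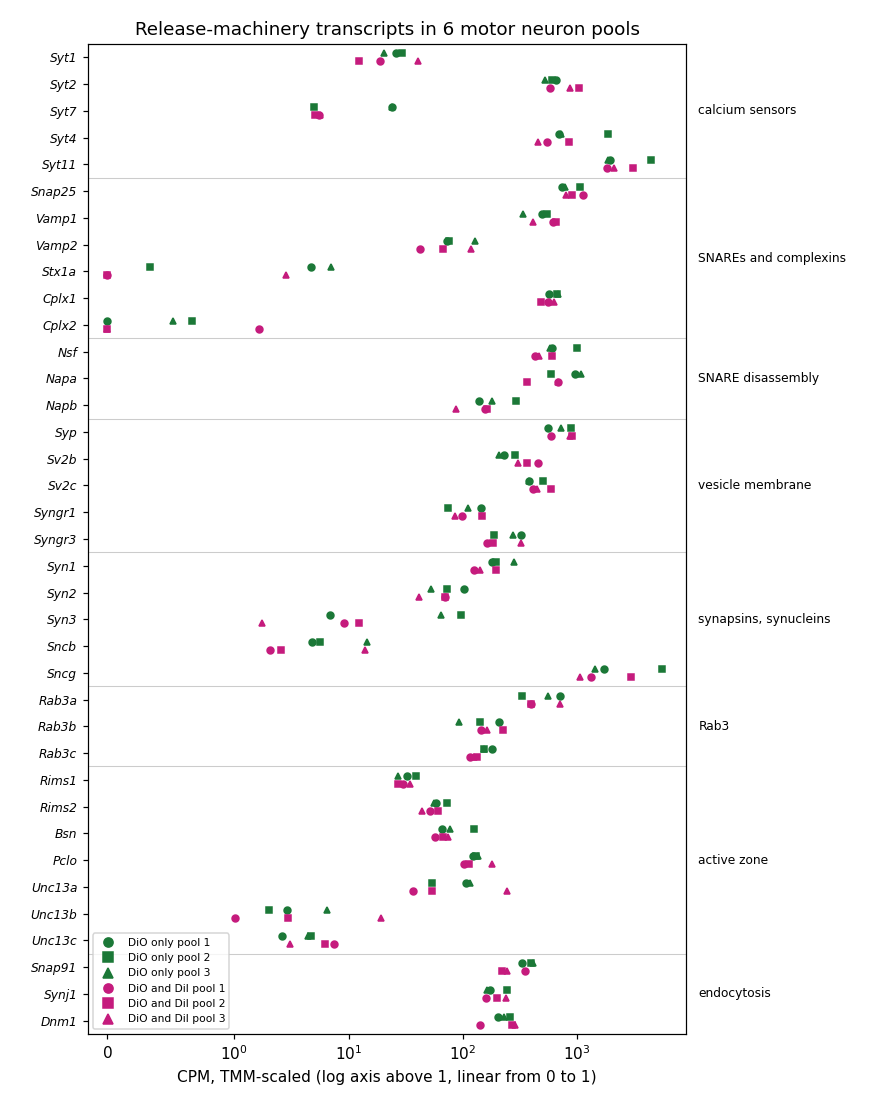
Level of each of the 37 members in each library, in TMM-scaled CPM on an axis that is logarithmic above 1 CPM and linear from 0 to 1. Green marks the 3 DiO-only pools and pink the 3 double-labelled pools, with 1 symbol per pool number, and genes are grouped by role. *Sncg* and *Syt11* lie above 1000 CPM in every library, while *Cplx2*, *Stx1a*, *Unc13b* and *Unc13c* lie near the left edge, and the colours mix for most genes.

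**Figure D2:**
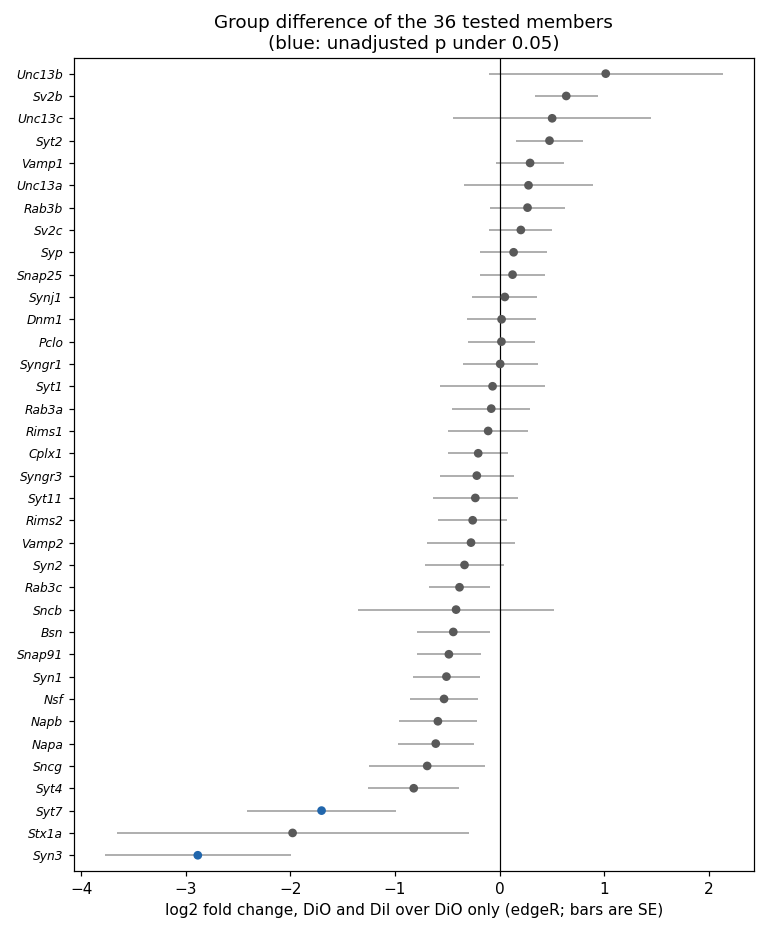
Log2 fold change of double-labelled over DiO-only pools for the 36 tested members, from edgeR, with bars of 1 SE on each side. The points run from -2.89 for *Syn3* to 1.01 for *Unc13b*, blue marks the 2 with an unadjusted p under 0.05, and none passed after adjustment.

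Among the calcium sensors, *Syt2* and not *Syt1* carried the fast-release transcripts. Both encode sensors of fast, synchronous release, and *Syt2* is the form known from the neuromuscular junction. *Syt2* (ENSMUSG00000026452; mm10 chromosome 1, 134646677 to 134762593, on the plus strand) stood at 658, 600.3 and 519.8 CPM in DiO-only pools 1, 2 and 3 and at 579, 1026 and 871 CPM in double-labelled pools. Double-labelled pools 2 and 3 were above every DiO-only pool and pool 1 lay among them. Its log2 fold change was 0.48 ± 0.32 (SE; edgeR adjusted p = 0.942). *Syt1* (ENSMUSG00000035864; mm10 chromosome 10, 108497650 to 109010982, on the minus strand) stood at 26.0, 29.4 and 20.6 and at 18.7, 12.4 and 40.7 CPM, with double-labelled pool 3 the highest of the 6 libraries and pool 2 the lowest. Per kilobase of exon, *Syt2* averaged 77.6 ± 9.07 CPM without and 108 ± 29.7 CPM with DiI (SD, n = 3), where *Syt1* had 3.04 ± 0.531 and 2.87 ± 1.78. *Syt1* thus held 3.49%, 4.29% and 3.51% of the pair in the DiO-only pools and 2.87%, 1.10% and 4.11% in the double-labelled pools, and the groups overlapped.

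The promoters of *Syt2* and *Syt1* are shown because their levels were so unequal, and those of *Cplx1* and *Cplx2*, described further on, for the same reason. Each window is 300 bases of GRCm38.p6 from RefSeq, 250 before and 50 after an annotated start, 5′ to 3′ on the strand of the gene. Capitals mark GC boxes, the letters GGGCGG or their reverse complement, where Sp1-family factors are known to bind. *Syt2* is at chr1:134646362-134646661, plus strand, *Syt1* at chr10:109010926-109011225, minus strand, *Cplx1* at chr5:108549978-108550277, minus strand and *Cplx2* at chr13:54302306-54302605, plus strand. The *Cplx2* start in RefSeq lies upstream of the GENCODE gene model, which begins only at 54371349. The *Cplx2* window is therefore not at the start of that model, which limits its comparison with the *Cplx1* window.
Syt2: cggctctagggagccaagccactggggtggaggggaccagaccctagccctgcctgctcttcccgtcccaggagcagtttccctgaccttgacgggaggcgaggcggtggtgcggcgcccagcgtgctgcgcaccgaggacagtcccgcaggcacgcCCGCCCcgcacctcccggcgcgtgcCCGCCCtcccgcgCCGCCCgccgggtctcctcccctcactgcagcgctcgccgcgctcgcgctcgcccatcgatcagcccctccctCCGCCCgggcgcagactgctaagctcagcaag
Syt1: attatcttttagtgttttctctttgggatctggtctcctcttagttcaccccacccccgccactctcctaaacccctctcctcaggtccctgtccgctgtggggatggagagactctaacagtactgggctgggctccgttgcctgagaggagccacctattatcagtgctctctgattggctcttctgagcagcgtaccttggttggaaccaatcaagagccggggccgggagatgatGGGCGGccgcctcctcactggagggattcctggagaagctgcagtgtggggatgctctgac
Cplx1: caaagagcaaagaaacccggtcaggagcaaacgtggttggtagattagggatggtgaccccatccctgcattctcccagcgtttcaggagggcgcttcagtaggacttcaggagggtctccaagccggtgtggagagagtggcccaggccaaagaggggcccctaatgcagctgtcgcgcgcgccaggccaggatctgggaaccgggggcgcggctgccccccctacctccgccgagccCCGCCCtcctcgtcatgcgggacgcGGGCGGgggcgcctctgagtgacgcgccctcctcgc
Cplx2: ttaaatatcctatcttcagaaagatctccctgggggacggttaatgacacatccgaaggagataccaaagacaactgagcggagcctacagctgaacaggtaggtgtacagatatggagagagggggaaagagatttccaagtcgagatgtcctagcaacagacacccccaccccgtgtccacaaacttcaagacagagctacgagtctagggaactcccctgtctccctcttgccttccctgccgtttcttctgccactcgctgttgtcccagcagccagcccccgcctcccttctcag
The *Syt2* window held 4 GC boxes and 34 CpG dinucleotides, and the *Syt1* window 1 and 8. The *Cplx1* window held 2 GC boxes and 24 CpG dinucleotides, and the *Cplx2* window 0 and 9. A second annotated window of *Syt2* held 2 GC boxes and one of *Syt1* held 0. This order did not hold in every unequal pair. *Sncb*, far below *Sncg* in level, held 2 GC boxes and 15 CpG dinucleotides, and *Sncg* 1 and 9. *Syn1*, above *Syn2* in level, held 0 GC boxes against 3 in the first window of *Syn2*. *Napa*, above *Napb*, held 2 against 0. Windows were matched for 30 of the 37 members, 38 windows in all because some genes have several starts, and 26 of these (68.4%) held a GC box, as did 35.7% of the 32851 windows of all genes. The median number of CpG dinucleotides was 19.5 in members' windows and 7 in all windows. The full cAMP response element TGACGTCA stood in 2 windows, those of *Syn1* and *Napa* (5.26%, against 1.79% of all windows), and the AP-1 letters TGANTCA in 1, the second window of *Syt2* (2.63%, against 7.81%), both strands being searched. These matches describe letters and are not evidence of binding, and a link between them and level was not tested.

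The other synaptotagmins stood at very different levels. *Syt7*, a slower, high-affinity sensor tied to asynchronous release and to lysosome exocytosis, stood at 23.9, 5.01 and 24.1 CPM in DiO-only pools and at 5.55, 5.12 and 5.63 CPM in double-labelled pools. DiO-only pools 1 and 3 were high, and DiO-only pool 2 lay at the level of the double-labelled pools, so the groups overlapped (log2 fold change -1.70 ± 0.71, SE; edgeR unadjusted p = 0.0349, adjusted p = 0.785). *Syt4* and *Syt11* encode a pair of synaptotagmins that lack full calcium binding and are known from dense-core vesicles and the Golgi. *Syt4* (ENSMUSG00000024261; mm10 chromosome 18, 31437808 to 31447406, on the minus strand) stood at 687, 1859 and 728 and at 549, 846 and 457 CPM. DiO-only pool 2 exceeded all others, and without it the log2 fold change of -0.82 ± 0.43 (SE; edgeR adjusted p = 0.885) was -0.18. An antisense gene, *Gm26658*, shares 566 exon bases with *Syt4* and stood at 145, 344 and 145 and at 49.3, 156 and 64.2 CPM, also highest in pool 2 of each group, and the strand setting of the counting is not given in the sources used here. *Syt11* stood at 1923, 4373 and 1862 and at 1824, 3041 and 2080.2 CPM, with pool 2 the highest in both groups. Its log2 fold change of -0.23 ± 0.41 (SE; edgeR adjusted p = 0.987) turned to 0.30 without DiO-only pool 2.

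The 2 genes kept a narrower ratio among the DiO-only pools than either level did. *Syt4* held 32.3%, 36.2% and 34.3% of the pair, in counts per kilobase, in DiO-only pools 1, 2 and 3, and 28.7%, 27.1% and 22.7% in double-labelled pools 1, 2 and 3. Every double-labelled pool lay below every DiO-only pool. The means were 34.3 ± 1.96% and 26.2 ± 3.10% (SD, n = 3; exact two-sided permutation p = 0.1, the lowest value possible with 3 pools a group, and 0.792 after Benjamini-Hochberg adjustment over the 19 paralogue shares computed). The difference of -8.11 percentage points stayed between -9.37 and -6.38 when single libraries were left out. *Gm26658*, which overlaps *Syt4*, was lower on average in the double-labelled pools too (log2 fold change -1.24 ± 0.49, SE; edgeR unadjusted p = 0.0284, adjusted p = 0.747), with overlapping groups, and its part in this share was not tested.

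Of the SNARE genes among the members, *Snap25* and *Vamp1* had the highest mean levels per kilobase. *Snap25*, of the plasma membrane SNARE, stood at 741, 1064 and 779.6 CPM in DiO-only and at 1117, 893 and 805 CPM in double-labelled pools, a spread of 1.51-fold over the 6 libraries (log2 fold change 0.12 ± 0.31, SE; edgeR adjusted p = 0.987). *Vamp1* (ENSMUSG00000030337; mm10 chromosome 6, 125215551 to 125245964, on the plus strand) encodes the vesicle SNARE known from motor terminals. Its levels were 494, 539.5 and 336 and 609, 657 and 410.2 CPM, with pool 3 the lowest in each group. *Vamp2*, the forebrain form, stood at 72.9, 75.5 and 127 and at 41.9, 67.0 and 119 CPM, with pool 3 the highest in each group. *Vamp1* held 64.8 ± 13.0% of the pair per kilobase in DiO-only and 73.2 ± 14.8% in double-labelled pools (SD, n = 3; exact two-sided permutation p = 0.5). The mean over the 6 libraries was 69.0%, and 84.9% without scaling by exon length. The share was lowest in pool 3 of each group, at 49.8% in DiO-only and 56.4% in double-labelled pools. By exon length *Vamp1* thus did not dominate in every library, but this depends on the length used. By the median length of coding transcripts its mean share was 81.9%, and without length scaling it exceeded *Vamp2* in every library.

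*Stx1a*, of the syntaxin that partners SNAP-25, was close to the limit of detection, with 32, 1 and 41 counts in DiO-only pools and 0, 0 and 21 in double-labelled pools. A count of 0 allows up to 3 counts, which is 0.602 CPM of all counts in double-labelled pool 1 and 1.00 CPM in pool 2. DiO-only pool 2 had 1 count, so the low libraries were in both groups (edgeR adjusted p = 0.967). Per kilobase *Stx1a* averaged 1.51 ± 1.28 CPM in DiO-only and 0.352 ± 0.609 CPM in the other pools (SD, n = 3).

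Complexins clamp and then promote fusion of primed vesicles, and here only *Cplx1* of the 2 was measured at depth. *Cplx1* (ENSMUSG00000033615; mm10 chromosome 5, 108518554 to 108550024, on the minus strand) stood at 572, 665 and 675 CPM and at 556, 481 and 622 CPM, the narrowest range of the 37 genes at 1.40-fold (log2 fold change -0.20 ± 0.29, SE; edgeR adjusted p = 0.978). *Cplx2* had 0, 2 and 3 counts in DiO-only and 8, 0 and 0 counts in double-labelled pools. *Cplx1* held 99.9% to 100% of the pair. A link between the GC boxes of the promoter windows shown above and these levels was not tested.

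**Figure D3:**
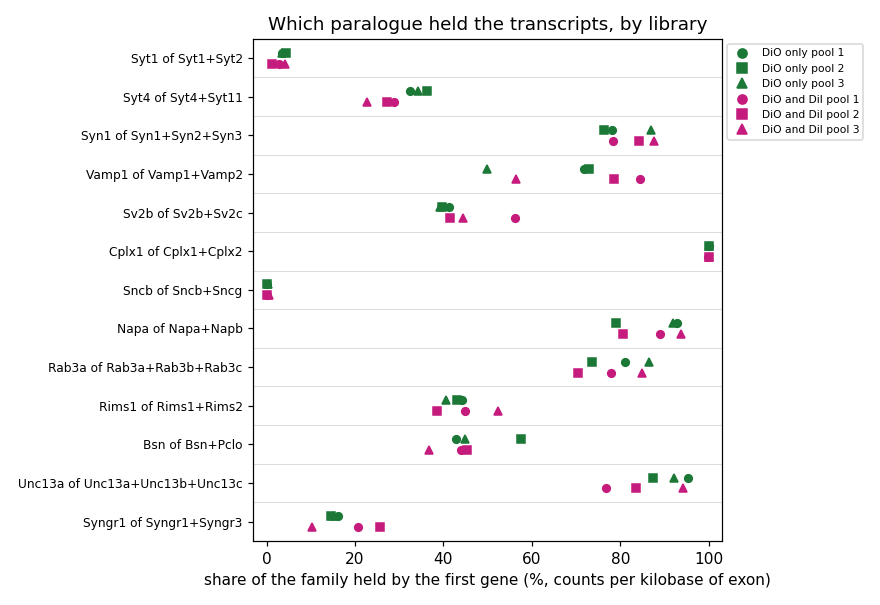
Share of each paralogue pair or family held by its first gene, in percent of counts per kilobase of exon, for 13 families. Each point is 1 library, green for DiO-only and pink for double-labelled pools, with 1 symbol per pool number. *Cplx1* is near 100%, *Syt1* and *Sncb* lie near 0%, and the groups are apart for *Syt4* (lower in double-labelled pools) and *Sv2b* (higher).

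The 3 members of SNARE disassembly, *Napa*, *Napb* and *Nsf*, had lower means in double-labelled pools without passing the test. *Napa*, of alpha-SNAP, stood at 959.6, 589 and 1082 CPM in DiO-only and at 675, 363 and 685 CPM in double-labelled pools. Pool 2 was the lowest of each group, and each double-labelled pool lay below the DiO-only pool of its number, with groups that overlapped (log2 fold change -0.61 ± 0.36, SE; edgeR adjusted p = 0.919). *Napb*, the brain-enriched beta-SNAP, stood at 139.6, 292 and 179 and at 156, 164 and 86.7 CPM. *Nsf*, the ATPase that they recruit, stood at 602, 986 and 576 and at 428, 606 and 463 CPM, with pool 2 the highest of each group. Log2 fold changes were -0.59 ± 0.38 and -0.53 ± 0.33 (SE; edgeR adjusted p = 0.936 and 0.929). *Napg*, of gamma-SNAP, from a wider list and named after its values were seen, stood at 153, 168 and 89.5 and at 189, 140.2 and 103 CPM, with overlapping groups and a log2 fold change of 0.07 ± 0.36 (SE). Per kilobase *Napa* held 87.9 ± 7.70% of *Napa* and *Napb* together in DiO-only and 87.7 ± 6.66% in double-labelled pools (SD, n = 3).

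Of the vesicle membrane proteins, the glycoprotein gene *Sv2b* was the one member with every double-labelled pool above every DiO-only pool. SV2 proteins regulate the readiness of vesicles for calcium-triggered fusion. *Sv2b* (ENSMUSG00000053025; mm10 chromosome 7, 75114894 to 75309262, on the minus strand) stood at 229, 283 and 209 CPM in DiO-only pools 1, 2 and 3 and at 453, 361 and 306 CPM in double-labelled pools 1, 2 and 3. The log2 fold change was 0.64 ± 0.30 (SE; edgeR unadjusted p = 0.0561, adjusted p = 0.869), and leaving out single libraries gave 0.47 to 0.78. *Sv2c*, of a paralogue known from motor neurons, stood at 379, 498 and 375 and at 408, 593 and 442 CPM, pool 2 being the highest of each group (log2 fold change 0.20 ± 0.30, SE; edgeR adjusted p = 0.980).

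*Sv2b* held 41.1%, 39.7% and 39.1% of the *Sv2b* and *Sv2c* counts per kilobase in DiO-only pools and 56.3%, 41.4% and 44.5% in double-labelled pools. No pool of one group lay among those of the other, although double-labelled pool 2 was within 1 percentage point of DiO-only pool 1 (exact two-sided permutation p = 0.1, adjusted p = 0.792). The gap of 7.39 points between the means was 2.93 points without double-labelled pool 1. Oligodendrocyte markers were higher and interneuron markers lower in the same libraries, whose part was not tested.

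*Syp*, of the abundant vesicle protein synaptophysin, stood at 555, 876 and 718 CPM in DiO-only and at 590.3, 898 and 869 CPM in double-labelled pools, with overlapping groups (log2 fold change 0.13 ± 0.32, SE; edgeR adjusted p = 0.987). An antisense gene, *Gm14703*, shares 875 exon bases with it and took 10628 counts over all libraries, beside 22415 for *Syp*, and reads of the shared bases cannot be told apart without a known strand setting. The synaptogyrins are relatives of synaptophysin. *Syngr3* stood at 321, 187 and 272 and at 164, 185 and 322 CPM and *Syngr1* at 144, 74.2 and 110.5 and at 98.2, 147 and 85.4 CPM, each with overlapping groups. *Syngr1* held 17.0% of the pair over the 6 libraries by exon length, but 56.1% by the median length of coding transcripts, so their order depends on the length used.

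**Figure D4:**
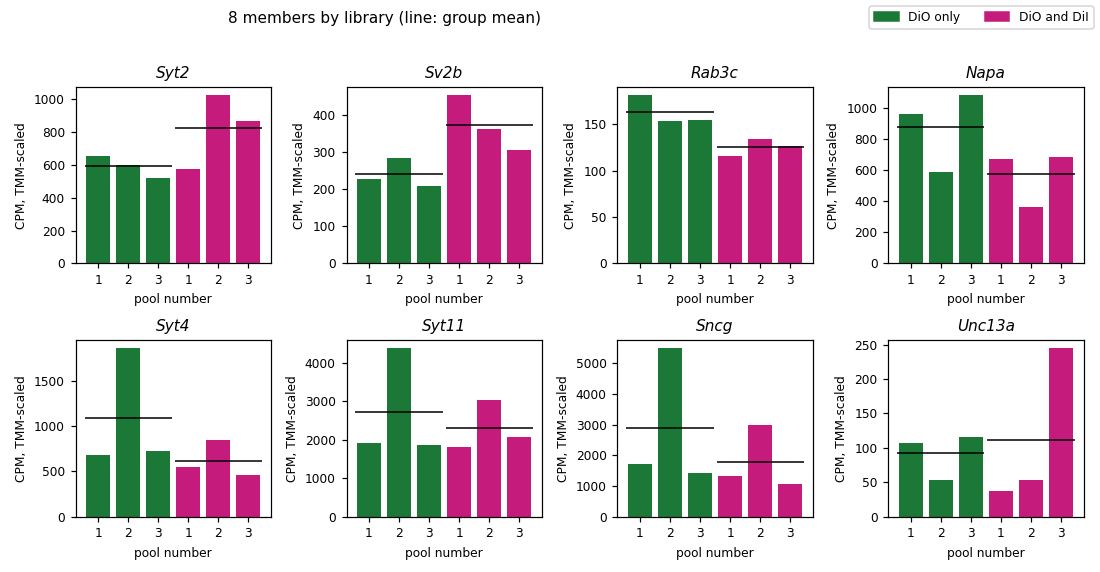
Level of 8 members in each library, in TMM-scaled CPM, as bars from 0 with a line at each group mean, green for DiO-only and pink for double-labelled pools. *Sv2b* and *Rab3c* have groups that do not overlap, *Syt4*, *Syt11* and *Sncg* are highest in pool 2 of each group, *Napa* is lowest there, and *Unc13a* is high in double-labelled pool 3.

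Synapsins tether vesicles to each other and to actin in the reserve pool. *Syn1* stood at 179, 193 and 282 CPM in DiO-only and at 126, 194 and 141 CPM in double-labelled pools, with DiO-only pool 3 high and double-labelled pool 1 low (log2 fold change -0.51 ± 0.32, SE; edgeR adjusted p = 0.936). *Syn2* stood at 102, 72.5 and 52.4 and at 69.2, 69.9 and 41.4 CPM, with overlapping groups. *Syn1* held 80.5 ± 5.68% of the 3 synapsins per kilobase in DiO-only and 83.4 ± 4.76% in double-labelled pools (SD, n = 3; exact two-sided permutation p = 0.5). Its mean over all libraries was 82.0% by exon length, 68.2% by the median length of coding transcripts and 65.7% without length.

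*Syn3* had the widest range of the members with counts in every library, 55.0-fold, and the smallest p of all members. *Syn3* (ENSMUSG00000059602; mm10 chromosome 10, 86055125 to 86498896, on the minus strand) encodes the synapsin best known from immature neurons. Its levels were 6.86, 95.9 and 65.0 CPM in DiO-only pools 1, 2 and 3 and 9.04, 12.4 and 1.74 CPM in double-labelled pools. DiO-only pools 2 and 3 were high, and DiO-only pool 1 lay below double-labelled pools 1 and 2. The log2 fold change was -2.89 ± 0.89 (SE; edgeR unadjusted p = 0.00749, adjusted p = 0.618). Without a filter on low counts, over 28513 genes, edgeR called it (adjusted p = 0.000126, where 0.277% of genes were called) and DESeq2 did not (adjusted p = 0.0559).

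The locus of *Syn3* also holds *Timp3*, an inhibitor of metalloproteinases on the opposite strand, and the genes share 1733 exon bases. *Timp3* stood at 6.86, 97.9 and 76.6 CPM in DiO-only pools and at 16.2, 9.52 and 0 CPM in double-labelled pools. Both genes were thus high in the same 2 pools and low in the other 4, with 803 counts for *Syn3* and 891 for *Timp3* over all libraries. Without strand, reads of the shared bases cannot be told apart, and the value of *Syn3* may hold reads of *Timp3*, which was not tested.

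**Figure D5:**
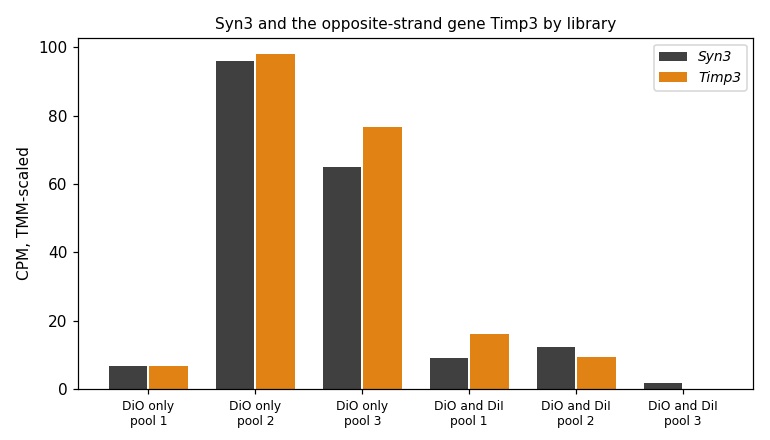
Levels of *Syn3* (grey) and of the opposite-strand gene *Timp3* (orange) in each library, in TMM-scaled CPM, as bars from 0. Both are highest in DiO-only pools 2 and 3, at 95.9 and 65.0 CPM for *Syn3* and 97.9 and 76.6 CPM for *Timp3*, and lower in the other 4 libraries.

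Of the 2 synuclein genes among the members, *Sncg* held nearly all transcripts. Synucleins are small membrane-binding proteins of the terminal, and *Sncg* is known from peripheral and motor neurons. *Sncg* (ENSMUSG00000023064; mm10 chromosome 14, 34370274 to 34374789, on the minus strand) stood at 1723, 5481 and 1439 CPM in DiO-only and at 1321, 2976 and 1052 CPM in double-labelled pools. Pool 2 was the highest of each group, and without DiO-only pool 2 the log2 fold change of -0.69 ± 0.55 (SE; edgeR adjusted p = 0.961) turned to 0.19. Per kilobase *Sncg* had 3381 ± 2648 and 2093 ± 1223 CPM (SD, n = 3), the highest of the 37 genes in each group, followed by *Syt11* at 522 ± 275 and 445 ± 123. *Sncb* had 33, 17 and 85 counts in DiO-only and 10, 7 and 104 counts in double-labelled pools, pool 3 being high in both groups, and held at most 0.523% of the pair in any library.

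Rab3 GTPases sit on vesicles and recruit them to RIM. *Rab3c* (ENSMUSG00000021700; mm10 chromosome 13, 110054187 to 110280996, on the minus strand) was the one member with every double-labelled pool below every DiO-only pool, at 181, 154 and 154 CPM in DiO-only and 115, 134 and 126 CPM in double-labelled pools. The gap was small, with a log2 fold change of -0.38 ± 0.29 (SE; edgeR unadjusted p = 0.208, adjusted p = 0.957). *Rab3a*, the main neuronal form, stood at 705, 330.1 and 549.7 and at 395, 395 and 709 CPM, with DiO-only pool 1 and double-labelled pool 3 both high (log2 fold change -0.08 ± 0.37, SE). *Rab3b* stood at 207, 142 and 91.6 and at 143, 225 and 163 CPM, with DiO-only pool 3 the lowest. *Rab3a* held 80.4 ± 6.42% of the 3 genes per kilobase in DiO-only and 77.7 ± 7.27% in double-labelled pools (SD, n = 3), and *Rab3c*, with its long exons, 4.90 ± 1.30% and 3.80 ± 0.883%. These shares depend on the length used. Over all libraries *Rab3c* averaged 4.35% by exon length, 10.6% by the median length of coding transcripts and 18.1% without length. *Rab3a* averaged 79.0%, 63.1% and 61.7% in the same order.

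Active zone scaffolds were measured at lower levels, with overlapping groups. *Pclo*, of piccolo, stood at 124, 130.3 and 135 CPM in DiO-only and at 102, 113 and 179 CPM in double-labelled pools (log2 fold change 0.02 ± 0.32, SE; edgeR adjusted p = 0.999). *Bsn*, of its partner bassoon, stood at 65.5, 125 and 77.8 and at 56.5, 66.6 and 73.8 CPM, with DiO-only pool 2 high (-0.44 ± 0.35 on the log2 scale, SE). The RIM genes *Rims1* and *Rims2* link vesicles to calcium channels. *Rims1* stood at 32.7, 39.1 and 27.0 and at 30.0, 27.1 and 34.2 CPM and *Rims2* at 58.2, 72.8 and 56.0 and at 52.0, 60.8 and 43.8 CPM, with overlapping groups. Mean levels of these 4 genes in DiO-only pools ran from 4.47 CPM per kilobase for *Rims1* to 6.00 for *Rims2*, against 137 for *Syp*.

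Munc13 proteins prime vesicles, and 1 library set the direction for *Unc13a* and *Unc13b*. *Unc13a* (ENSMUSG00000034799; mm10 chromosome 8, 71624417 to 71671757, on the minus strand) stood at 107, 53.8 and 116 CPM in DiO-only and at 36.8, 53.4 and 244 CPM in double-labelled pools. Double-labelled pool 3 was the highest of all libraries and pools 1 and 2 were the lowest. The log2 fold change of 0.28 ± 0.62 (SE; edgeR adjusted p = 0.987) turned to -1.04 without that pool. *Unc13b* had 20, 6 and 38 counts and 5, 8 and 143 counts, again with double-labelled pool 3 on top, and its log2 fold change of 1.01 ± 1.12 turned to -0.98 without it. *Colgalt1*, on the opposite strand with 495 exon bases shared with *Unc13a*, was also highest in that library, at 64.7 CPM against 9.04 to 29.7 CPM elsewhere. *Unc13c*, known from the cerebellum, had 18, 14 and 26 and 36, 17 and 23 counts, and its log2 fold change of 0.50 ± 0.95 (SE) was 0.24 to 0.80 when single libraries were left out. *Unc13a* held 95.2%, 87.3% and 92.1% of the family per kilobase in DiO-only and 76.7%, 83.5% and 94.2% in double-labelled pools.

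The 3 members of vesicle retrieval, *Snap91*, *Dnm1* and *Synj1*, had overlapping groups. *Snap91*, of the clathrin adaptor AP180, stood at 329, 395 and 407 CPM in DiO-only and at 348, 219 and 241 CPM in double-labelled pools. Double-labelled pools 2 and 3 lay below every DiO-only pool, and pool 1 above the lowest of them (log2 fold change -0.48 ± 0.30, SE; edgeR adjusted p = 0.934). *Dnm1*, of the GTPase that cuts vesicles free, stood at 203, 256 and 230.3 and at 142, 269 and 288 CPM, with double-labelled pool 1 low. *Synj1*, of a phosphatase that uncoats them, stood at 173, 242 and 163 and at 158, 200.2 and 239 CPM. Log2 fold changes were 0.02 ± 0.33 and 0.05 ± 0.31 (SE; edgeR adjusted p = 0.999 and 0.993).

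Some members had their highest or lowest library at the same pool number in both groups. Pool 2 was the highest library of each group for 10 of 36 tested members (*Syt4*, *Syt11*, *Syn3*, *Vamp1*, *Syp*, *Sv2c*, *Sncg*, *Nsf*, *Napb* and *Rims2*), where 14% of all genes tested did so. It was the lowest of each group for 3 members (*Syt7*, *Napa* and *Rab3a*), where 15.5% of all genes did so. Pool 1 was the lowest of each group for 7 members (12.2% of all genes) and pool 3 for 5 (13.3%). Pool 3 was the highest in both groups for 9 members, *Unc13a*, *Unc13b*, *Vamp2*, *Sncb* and *Cplx1* among them (16.3% of all genes), and pool 1 for 0 (12.6%). The libraries numbered 2 had the smallest totals of their groups, 3747145 and 2997714 counts. The labels speak of 3 batches without giving the batch of a library. Summed over the members, the level was 12738, 20792 and 12474 CPM in DiO-only and 11388, 15372 and 12286 CPM in double-labelled pools. Without *Syt11* and *Sncg* it was 9092, 10938 and 9173 and 8243, 9355 and 9154 CPM, so those 2 genes made most of the excess of pool 2.

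A wider list of 94 other vesicle genes, with calcium channels, clathrin adaptors and transmitter transporters, gave the same count of 0 calls in edgeR. Of these genes 78 were tested, 37 with a log2 fold change below 0 and 41 above, with a median of 0.04. At an unadjusted p under 0.05, 3 were higher and 0 lower, where 3.18% and 2.63% of all genes were. Groups did not overlap for 5 of the 78 upward and 5 downward, where 5.86% and 7.07% of all genes tested had groups apart. *Syt3*, *Vamp4*, *Scamp5*, *Cltb*, *Ap2a2* and *Cadps2* were among them. *Syt3*, a high-affinity calcium sensor, had the smallest p of the list. It stood at 84.2, 39.1 and 56.4 CPM in DiO-only and at 113, 256 and 122 CPM in double-labelled pools, without overlap (log2 fold change 1.44 ± 0.42, SE; edgeR unadjusted p = 0.00540, adjusted p = 0.617). *Scamp1*, of a carrier membrane protein, stood at 138, 169 and 106 and at 306, 275 and 149 CPM, and *Lin7b*, of a scaffold subunit, at 26.8, 5.01 and 12.9 and at 16.0, 44.3 and 63.6 CPM, both with overlapping groups (edgeR adjusted p = 0.796 and 0.836). Next by p were *Rph3a*, a Rab3 effector, *Vamp4* and *Scamp5*, with log2 fold changes of 0.98, 0.87 and 0.66. On the lower side the smallest p was that of *Cltb*. *Cltb*, a clathrin light chain, stood at 726, 660.5 and 649 CPM in DiO-only and at 444, 469 and 425 CPM in double-labelled pools, without overlap (log2 fold change -0.60 ± 0.28, SE; edgeR unadjusted p = 0.0511, adjusted p = 0.860). The AP2 genes of smallest p on that side, *Ap2a2*, *Ap2m1* and *Ap2s1*, had log2 fold changes of -0.60, -0.72 and -0.55. *Ap2a1* and *Ap2b1* of the same list, named after their values were seen, had 0.09 and -0.16. The other clathrin genes *Clta* and *Cltc*, likewise named, had -0.15 and -0.09. *Cadps2*, of a dense-core vesicle priming factor, and the scaffold gene *Erc1* had log2 fold changes of -1.99 and -0.55. None of the 12 genes of smallest p passed.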

How the data were processed

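Read counts per Ensembl gene were deposited by the authors as whole numbers without normalisation. The submitters' processing notes name HISAT2, HTSeq, FastQC and build mm10. Tool versions, the annotation and the strand setting were not given in the sources used here. Per the labels' protocols, cDNA was amplified over 20 PCR cycles, and no molecular identifiers are named, so counts are not independent molecules. The files of single libraries held the same counts as the table of all libraries. Coordinates and exon lengths were taken from GENCODE M21 (GRCm38, that is mm10), where 53858 of 53858 identifiers were found.

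Genes were filtered with filterByExpr by group (12954 kept, 99.2% of counts), scaled with TMM and tested with edgeR 4.0.16 (R 4.3.3; robust dispersions, two-sided quasi-likelihood test). Benjamini-Hochberg adjustment covered all genes tested, and adjusted p under 0.05 was called. Replicates varied with a common biological coefficient of 0.587, and 3 counts were 0.457 to 1.00 CPM of a library. A standard error is the fold change over the root of its F value. Paralogue shares were counts per kilobase of the union of exons, compared with exact two-sided permutation tests. Alternatives were other scalings and filters, DESeq2 1.42.0, limma 3.58.1 voom with quality weights, a replicate block and leaving out libraries. The edgeR fit was tested on simulated data. Members and lists were chosen with earlier results of these data known. All members are named, and of the wider list the 6 genes of smallest p per direction, besides *Napg*, *Ap2a1*, *Ap2b1*, *Clta* and *Cltc*. Some genes of that list are not reported here. Marker lists covered motor neurons, oligodendrocytes, astrocytes, microglia, interneurons, endothelial cells with pericytes, and Schwann cells. Figures were drawn with matplotlib 3.10.9.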

Additional observations from a re-analysis of the deposited data

How the results depend on the processing

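Counts of calls depended on the filter and the design. Over all genes edgeR called 0, and it called 79 without a filter on low counts and 23 with a replicate block, and DESeq2 without a filter called 75. Members called were 0, except 1 (*Syn3*) in edgeR without the filter, and with the replicate block 0 members passed. The labels do not say that pool numbers are pairs. Deviations of same-numbered pools correlated at 0.0742, 0.228 and 0.203, and each pool correlated best with its own number, a hint from the data only. Members lower at an unadjusted p under 0.05 numbered 4 without the filter, 5 with the replicate block, 1 without both libraries numbered 2 (added after seeing the data) and 1 to 4 when single libraries were left out. Members higher numbered 1 with total count scaling, 2 with limma voom, 1 with the block and 0 to 1 when single libraries were left out. In the main fit 2.63% of all genes were lower and 3.18% higher at that value. The shares of all genes under the alternatives are not given here, so these counts cannot be read as a shift of the members. The wider list gave 0 calls under each of the 14 alternatives.

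Of 36 tested members, 21 kept their direction under those of the 14 alternatives that tested them. For the others, leaving out 1 library gave log2 fold changes of -0.69 to 0.22 for *Syt1*, -0.50 to 0.30 for *Syt11*, -0.022 to 0.31 for *Snap25*, -0.76 to 0.034 for *Vamp2* and -0.020 to 0.32 for *Syp*. The same runs gave -0.10 to 0.26 for *Synj1*, -1.86 to 0.26 for *Sncb*, -1.30 to 0.19 for *Sncg*, -0.42 to 0.18 for *Rab3a* and -0.23 to 0.040 for *Rims1*. They further gave -0.27 to 0.17 for *Pclo*, -1.04 to 0.69 for *Unc13a*, -0.98 to 1.64 for *Unc13b*, -0.26 to 0.25 for *Syngr1* and -0.16 to 0.28 for *Dnm1*. Signs also turned to *Syt1* 0.045 and *Syngr1* -0.038 with total count scaling and to *Pclo* -0.00050 and *Syngr1* -0.020 without a filter. With limma voom they turned to *Syt11* 0.13, *Pclo* -0.078 and *Unc13a* -0.40, and with the replicate block to *Pclo* -0.027, *Unc13a* -0.14 and *Dnm1* -0.040. Without both libraries numbered 2 they turned to *Syt1* 0.35, *Syt11* 0.042, *Rims1* 0.10, *Syngr1* -0.47 and *Dnm1* -0.015. The cause was not tested. The median of all genes moved by -0.37 without a filter, by -0.33 with DESeq2 and by -0.11 with limma voom.

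Of the paralogue shares, those that turned when single libraries were left out had differences of -0.137 to 0.130 for *Sncb*, -4.59 to 3.46 for *Napa* and -1.68 to 5.01 for *Syn2* percentage points. The others ran from -6.24 to 1.03 for *Rab3a*, -0.0394 to 0.0262 for *Cplx1*, -0.838 to 6.05 for *Rims1* and -0.175 to 1.28 for *Unc13b*. Neither other length scaling turned a share difference. Low counts limit *Stx1a*, *Cplx2*, *Sncb*, *Unc13b* and *Unc13c*.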
